A study of Mus musculus with 4 samples.

Results

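A set of 10 heat shock chaperone genes was followed over 4 mouse CD4 T lineage populations, and 9 of the 10 could be read, out of 22180 genes measured. They are the cytosolic HSP70 genes Hspa1a, Hspa1b and Hspa8, the HSP70 of the endoplasmic reticulum (ER) Hspa5, the HSP110 gene Hsph1, the J protein gene Dnajb1, the HSP90 genes Hsp90aa1 and Hsp90ab1, and the mitochondrial chaperonin pair Hspd1 and Hspe1. The genes were chosen by name with their values on these arrays already known, and the probe set of each gene was selected on the highest mean over the 4 arrays. What follows is therefore a description of them. A gene was read only from probe sets annotated to exactly 1 symbol, and Hsp90ab1 was not analysed here because no probe set met that condition.

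Each population was measured on 1 Affymetrix array, from C57BL/6 mice of 8 weeks. Natural Th1 cells (nTh1) were CD4+CD62L+CXCR3+ thymocytes of CIITAtg mice. Classical Th1 cells (cTh1) were made from splenic CD4+CD62Lhi cells of wild-type mice that were stimulated for 5 days by anti-CD3/CD28 beads in medium with anti-IL-4 antibody, 50 U/ml of IL-2 and 2 ng/ml of IL-12. TT naive cells were CD4+CD62L+CXCR3- thymocytes of CIITAtg mice. Naive cells were CD4+CD62Lhi cells taken from wild-type spleen without culture. CIITA is the master regulator of MHC class II genes, and the sources used here do not name the promoter of its transgene or say whether mice were pooled. Values are log2 summaries made by robust multi-array averaging (RMA), and a level can be compared between arrays for 1 probe set, not between probe sets. Every group is 1 array, so the differences are unreplicated and were not tested. As a measure of error there is only the scatter of a log2 difference among probe sets of 1 gene, whose SD lay between 0.257 and 0.481 over the 6 comparisons. It leaves out differences between animals, sorts, cultures and arrays.

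Chaperones hold unfolded proteins and help them fold. In the cytosol the factor HSF1 binds inverted repeats of the bases GAA in promoters when unfolded protein accumulates and switches on the inducible genes Hspa1a, Hspa1b, Hsph1 and Dnajb1, while Hspa8 is the HSP70 that cells make all the time. In the ER an analogous response raises Hspa5, better known as BiP, through ER stress elements. T cells are known to make more of several chaperones when they are activated.

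The promoters show which of these genes carry such elements. Windows of 300 bases, 250 before and 50 after an annotated RefSeq start (GRCm38.p6), were given for 7 of the 10 genes, and Hspa8, Hsp90aa1 and Hsp90ab1 had none here. The heat shock element was searched as 2 perfect units in either order, GAANNTTC or TTCNNGAA, which each read the same on both strands. It was also searched as 3 alternating units with 2 bases between them and at most 1 mismatch over the 9 unit bases. Both forms overlap by construction. Of all 32851 windows, 15.1% held the 2-unit form and 7.22% the 3-unit form. Both forms were in windows of 5 of the 7 genes, namely Hspa1b, Hspa1a, Hsph1, Hspd1 and Hspe1. Hsph1, Hspd1 and Dnajb1 had 2 windows each, and for Hspd1 only window 2 held the forms. The shares of all windows are per window, not per gene. A match is a description of the letters, not of a bound site. The runs are shown because these genes differ in how much their levels moved. Capitals mark the unit bases, or for Hspa5 the CCAAT and CCACG parts of the ER stress element, and each run reads 5′ to 3′ on the strand of its gene.
Hspa1b, chr17:34959329-34959358, minus strand: agacgcGAAacTGCtgGAAgaTTCctggcc
Hspa1a, chr17:34972247-34972276, minus strand: agacgcGAAacTGCtgGAAgaTTCctggcc
Hsph1 upstream, chr5:149636346-149636375, minus strand: gaatctTTCtcGAAggCTCgaGAAgaagga
Hsph1 downstream, chr5:149636282-149636311, minus strand: aatgctGCAgaTTCtgGAAagTTCtcctca
Hspe1, chr1:55088053-55088082, plus strand: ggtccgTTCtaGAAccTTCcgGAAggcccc
Hspd1, chr1:55088053-55088082, minus strand: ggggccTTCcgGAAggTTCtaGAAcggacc
Hspa5, chr2:34772019-34772049, plus strand: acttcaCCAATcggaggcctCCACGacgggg

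Hspd1 and Hspe1 lie head to head, and their runs are the same 30 bases read from either strand, without a mismatch in any unit. The element of Hspa1b and Hspa1a began at base -114 from the start in both genes. Over the whole window these 2 promoters differed at 4 of 300 bases, written as the Hspa1b base, the position counted from 1 at the 5′ end of the window and the Hspa1a base: T44C, C47T, G249T and T276C. None of these lies in the printed element. The ER stress element, CCAAT and CCACG with 9 bases between them on either strand, was in the Hspa5 window and in 0.119% of all windows. Dnajb1 matched neither heat shock form in either of its windows.

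**Figure D1:**
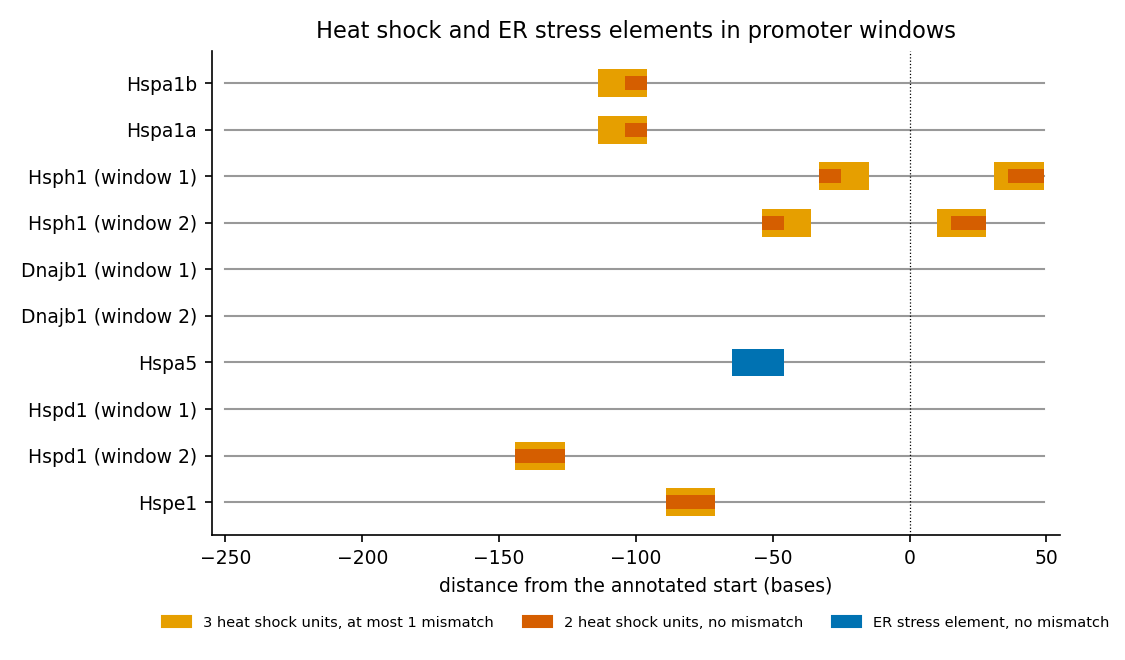
Positions of the searched elements in the promoter windows of 7 chaperone genes; the x axis is the distance in bases from the annotated start, each grey line is 1 window, wide yellow bars are the 3-unit heat shock form, narrow red bars the 2-unit form and the blue bar the ER stress element. The Hspa1b and Hspa1a elements sit at the same distance, and Hspa5 holds only the ER stress element. Both Dnajb1 windows and Hspd1 window 1 hold none.

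The labels were checked against marker genes. Cd4 was between 12.33 and 12.72 on all 4 arrays. Cxcr3, used for the sort, stood at 9.91 in nTh1 and 10.53 in cTh1, against 7.76 in TT naive and 9.80 on the array labelled naive. Tbx21, the factor of Th1 cells, was at 7.92 in nTh1 and 11.25 in cTh1, against 7.11 in TT naive and 9.81 on the array labelled naive. Zbtb16, a factor of innate-like T cells, was at 9.88 in nTh1 and 7.31 in cTh1, against 9.36 in TT naive and 12.23 on the array labelled naive. Naive CD4 T cells are known to hold little of either factor. The MHC class II gene H2-Aa, a target of CIITA, was at 12.66 in nTh1 and 10.73 in cTh1, against 12.29 in TT naive and 12.66 on the array labelled naive, so that the last stood with the CIITAtg arrays and not with wild-type cTh1. The array goes against its label in these genes, its wild-type spleen origin included, so it is called the array labelled naive, and the sign of any difference from it rests on an uncertain label. The Y-linked Eif2s3y was at 5.16 in nTh1 and 4.97 in cTh1, against 8.55 in TT naive and 8.61 on the array labelled naive. Xist, which female cells make, was high on all of them, at 13.25 in nTh1 and 12.56 in cTh1, against 13.03 in TT naive and 12.58 on the array labelled naive. The TT naive and naive-labelled arrays thus held Y-linked RNA together with Xist. The presence of Y-linked RNA and the cell type cannot be told apart in any comparison of a Th1 array with a naive array. This holds for each single pair and for both Th1 arrays set against both naive arrays. In bulk RNA, fewer cells that carry a transcript and less of it per cell cannot be told apart either.

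On the probe set chosen for each gene, all 9 chaperones read were lower on both Th1 arrays than on TT naive and the array labelled naive. The last goes against its label, and it also exceeded nTh1 in Ifng, at 8.80 against 7.34. Wherever both naive arrays are named, they are thus a pair by label only, and the order is no contrast of Th1 with naive cells. Among 13238 genes that reached the overall median value, 6.61, on at least 1 array, 19.3% had both Th1 arrays below both naive arrays. The members were proposed with these values in view, so the count describes them and is no evidence of a shared change. The distance between the lower naive array and the higher Th1 array ran from 0.05 on the log2 scale for Hspa5 to 0.72 for Hspd1. For Hspa5, Hspa8 and Hsp90aa1 it was at most 0.09, less than any SD between probe sets. With a loess trend taken off, nTh1 minus TT naive was 0.01 for Hspa5 and nTh1 minus the array labelled naive was 0.02 for Hsp90aa1. On a nearly identical pair of other Hspa8 probe sets nTh1 minus TT naive was 0.09, so the order of these genes is not settled. Nor is that of Hsph1, whose distance of 0.35 was under the SD of 0.368 for nTh1 minus the array labelled naive. In 5 of the 9 genes the distance was at least 0.402, the SD for cTh1 minus the array labelled naive.

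**Figure D2:**
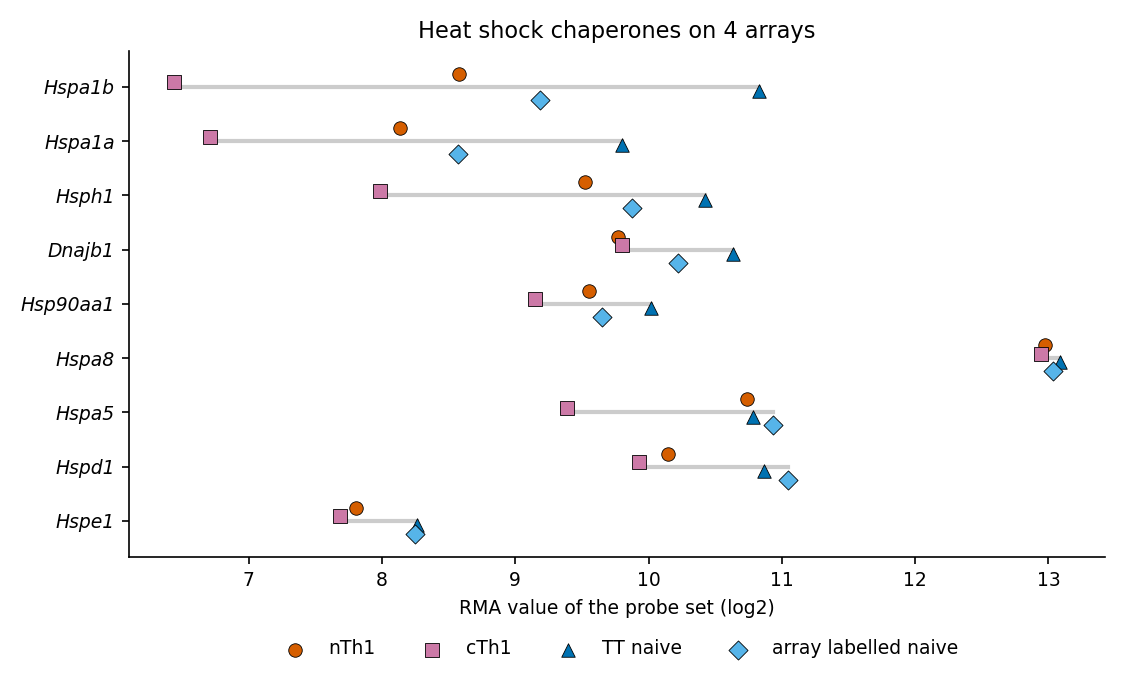
RMA values (log2, x axis) of 9 chaperone genes on the nTh1, cTh1, TT naive and naive-labelled arrays, 1 marker per array with a small vertical offset, and a grey line from the lowest to the highest array of each gene. Hspa1b runs from 6.44 in cTh1 to 10.83 in TT naive, and Hspa8 stays within 0.15; positions are to be compared within a gene only.

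The inducible cytosolic HSP70 genes varied most. Hspa1b, which encodes a stress-inducible HSP70, had values of 8.58 in nTh1, 6.44 in cTh1, 10.83 in TT naive and 9.19 on the array labelled naive. TT naive was the highest array and cTh1 the lowest, where the value lay under the median of all values. The whole span was 4.39 on the log2 scale, or 21.0-fold. The values carry no detection call, so whether 6.44 stands above background is unknown, and folds of Hspa1b against cTh1 may understate the difference. Hspa1a, its neighbour on chromosome 17 with a nearly identical sequence, had 8.14 in nTh1, 6.71 in cTh1, 9.80 in TT naive and 8.57 on the array labelled naive. It followed the same order over a span of 3.09, or 8.49-fold. Its cTh1 value was only just above the median of all values, 6.61, and also has no detection call. Folds of Hspa1a against cTh1 may therefore understate the difference as well. Probes of such close copies may read both transcripts, so the division between Hspa1b and Hspa1a is uncertain. A further probe set annotated to both genes was at 5.24 in nTh1, 5.25 in cTh1, 5.92 in TT naive and 5.39 on the array labelled naive, all under the median of all values.

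Hsph1 encodes HSP110, which exchanges the nucleotide of HSP70 and so lets it release its client. It had 9.52 in nTh1, 7.99 in cTh1, 10.42 in TT naive and 9.87 on the array labelled naive. The order was that of Hspa1b and Hspa1a, over a span of 2.44, or 5.41-fold. Its profile, centred on its own mean, was closer to that of Hspa1a than was the profile of any other member, at a Euclidean distance of 0.61 on the log2 scale over the 4 arrays, against 0.94 between Hspa1a and Hspa1b.

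Dnajb1 encodes an HSP40 J protein that delivers clients to HSP70 and stimulates its ATPase. Its values were 9.77 in nTh1, 9.80 in cTh1, 10.63 in TT naive and 10.22 on the array labelled naive. TT naive was again highest, but the Th1 arrays lay within 0.03 of each other, less than the SD of 0.481 between probe sets for nTh1 minus cTh1. Hsp90aa1, the stress-inducible HSP90 of the cytosol, had 9.56 in nTh1, 9.15 in cTh1, 10.02 in TT naive and 9.65 on the array labelled naive. It spanned 0.87, or 1.83-fold, with nTh1 and the array labelled naive within 0.09 of each other.

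Hspa8, the constitutive HSP70, hardly varied. It had 12.98 in nTh1, 12.94 in cTh1, 13.09 in TT naive and 13.04 on the array labelled naive, a span of 0.15 or 1.11-fold, below every SD between probe sets. Its 3 other probe sets with 1 symbol differed by no more than 0.22 in any of the 6 comparisons. For nTh1 minus TT naive they were at 0.09, 0.09 and -0.22, against -0.11 on the chosen probe set. The pair at 0.09 had nearly the same values on every array, such as 10.17 in nTh1 and 10.06 in cTh1, and may not be separate readings. Neighbours in the order of the Hspa8 levels are therefore not separated by any measure of error available here. One probe set annotated to both Hspa8 and Snord14e, a small nucleolar RNA encoded within an Hspa8 intron, behaved otherwise. It was at 10.31 in nTh1, 9.37 in cTh1, 11.60 in TT naive and 10.19 on the array labelled naive, which puts TT naive highest and cTh1 lowest, with cTh1 minus TT naive at -2.23. It names no single gene and entered no count.

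Hspa5 encodes BiP, the HSP70 of the ER. It had 10.73 in nTh1, 9.39 in cTh1, 10.78 in TT naive and 10.93 on the array labelled naive. The nTh1, TT naive and naive-labelled arrays lay within 0.20 of each other, and nTh1 minus cTh1 was 1.34. For Hspa1b, by comparison, nTh1 minus TT naive was -2.25.

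The mitochondrial chaperonin consists of a barrel encoded by Hspd1 (HSP60) and a lid encoded by Hspe1 (HSP10). Hspd1 was at 10.15 in nTh1, 9.93 in cTh1, 10.87 in TT naive and 11.05 on the array labelled naive. Hspe1 was at 7.81 in nTh1, 7.68 in cTh1, 8.26 in TT naive and 8.25 on the array labelled naive. In both genes the Th1 arrays lay together and the naive arrays lay together, with 0.72 between the pairs for Hspd1 and 0.44 for Hspe1. The span of Hspe1 was 0.58 and that of Hspd1 was 1.12.

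Thymocytes of CIITAtg mice with and without CXCR3 were compared first, as nTh1 minus TT naive. This pair also differed in Y-linked RNA, with Eif2s3y at -3.39. On the chosen probe sets all 9 genes were lower in nTh1. Their median difference was -0.72, against -0.05 over all 12435 genes above the level filter. At 2-fold or more, Hspa1b was lower by 2.25 on the log2 scale, or 4.77-fold, and Hspa1a was lower by 3.16-fold. The share of all genes at least 2-fold lower was 1.09%, and 1.41% were at least 2-fold higher. Hspa1b was the 11th lowest gene of this comparison. Hsph1 and Dnajb1 came next at -0.90 and -0.86, and 1.51% and 1.71% of genes lay below them. Hspa5 was at -0.05, close to the median of all genes.

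Cultured Th1 cells were then compared with the array labelled naive, whose source is in doubt as described above. All 9 genes were lower in cTh1, with a median of -1.12 against -0.02 over 12835 genes. Of these, 5 were at least 2-fold lower: Hspa1b at -2.75, Hsph1 at -1.89, Hspa1a at -1.86, Hspa5 at -1.54 and Hspd1 at -1.12. Of all genes, 3.35% were at least 2-fold lower and 5.13% at least 2-fold higher. Hspe1, at -0.56, and Hsp90aa1, at -0.50, stayed under 2-fold, and Dnajb1 and Hspa8 were at -0.42 and -0.09. The thymic comparison, which used neither of these arrays, had Hspa5 at -0.05 and Hspd1 at -0.72.

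**Figure D3:**
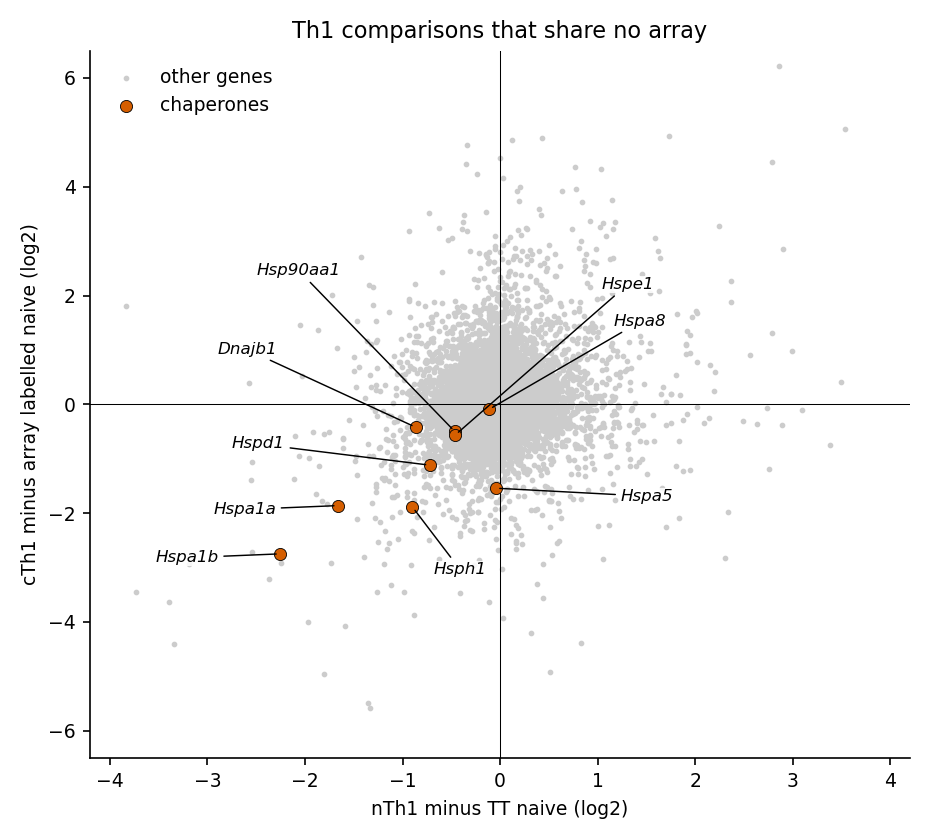
Log2 difference of nTh1 minus TT naive (x axis) against cTh1 minus the array labelled naive (y axis) for the 13238 genes that reached 6.61 on any array; orange points are the 9 chaperones and grey points the other genes. All 9 chaperones lie below 0 on both axes, with Hspa1b at -2.25 and -2.75 and Hspa5 at -0.05 and -1.54.

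The series is named for nTh1 and cTh1 cells, which were compared directly. In this comparison 4 genes were at least 2-fold higher in nTh1, namely Hspa1b by 4.41-fold over a cTh1 value under the filter level, Hsph1 by 2.90-fold, Hspa1a by 2.69-fold and Hspa5 by 2.54-fold. Of 12841 genes, 8.3% were lower in nTh1 by 2-fold or more and 3.46% were higher by as much. Of the genes at 2-fold, 29.4% were thus higher in nTh1, and 15.9% were when each array was centred on its own median. The median of the 9 chaperones was 0.41 and that of all genes above the filter -0.08. Dnajb1, Hspa8, Hspe1, Hspd1 and Hsp90aa1 lay between -0.03 and 0.41, within the SD of 0.481 between probe sets. With arrays centred, Hspa8 and Hspe1 changed sign, to -0.15 and -0.06. These cells differ in tissue, genotype and culture at once, and which of these goes with a difference cannot be told apart.

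Set against the TT naive array, cTh1 gave the largest differences for Hspa1b, Hspa1a, Hsph1, Hsp90aa1, Hspe1 and Hspa8. Hspe1 and Hspa8 were at -0.58 and -0.15. Hspa1b was lower by 21.0-fold, at rank 3 from the lowest of 12728 genes with cTh1 under the filter level, Hspa1a by 8.49-fold, Hsph1 by 5.41-fold and Hspa5 by 2.62-fold. The shares of all genes were 3.02% at least 2-fold lower and 7.24% at least 2-fold higher. Hspd1, Hsp90aa1 and Dnajb1 were at -0.94, -0.87 and -0.84, and the median of the 9 was -0.94 against 0.03 over all genes. It shares an array with each comparison above, so its values are not a separate reading.

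Between nTh1 and the array labelled naive no chaperone reached 2-fold, while 4.43% of 12754 genes were at least 2-fold lower and 1.93% at least 2-fold higher. The members ran from -0.90 for Hspd1 to -0.06 for Hspa8, with a median of -0.44 against -0.10 over all genes. Of the genes at 2-fold, 30.3% were higher in nTh1, and that share was 17.7% with arrays centred and 40.6% with a loess trend taken off. Hspa1b was at -0.61, with 12.3% of genes below it.

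The TT naive array was also set against the array labelled naive, and Hspa1b and Hspa1a were the members at 2-fold. In TT naive cells Hspa1b was higher than on the array labelled naive by 3.12-fold and Hspa1a by 2.33-fold, and Hspa1b ranked 19th from the top of 12582 genes. Of all genes, 0.795% were at least 2-fold higher in TT naive and 2.59% at least 2-fold lower. Hsph1, Dnajb1 and Hsp90aa1 were at 0.55, 0.41 and 0.37. Hspa8 was at 0.05 and Hspe1 at 0.02, and both turned negative with arrays centred, to -0.02 and -0.05. Hspd1 and Hspa5 were at -0.18 and -0.15, within the SD of 0.304 between probe sets.

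Other chaperone genes were counted in the same way. Of 79 further genes of HSP70, J protein, nucleotide exchange, HSP90 partner, small heat shock protein, chaperonin and prefoldin lists, 0 were at least 2-fold apart between nTh1 and TT naive out of 69 above the filter, and 1 of 71 was between cTh1 and the array labelled naive. That gene was Dnajb9, an ER J protein that works with BiP, at -1.78. The medians were -0.20 in each of these comparisons. Of all genes, 2.50% and 8.48% were at least 2-fold apart in them, and between 2.50% and 11.8% over the 6 comparisons. Past 2-fold in nTh1 minus cTh1 were Dnajb9 at 1.85, Bag3 at -1.12 and Hspa2, a testis-enriched HSP70, at -1.45. In cTh1 minus TT naive they were Hspa2 at 1.26, Hspa4l, an HSP110 relative, at -1.01 and Dnajb9 at -1.33. Both Th1 arrays lay below both naive arrays in 29 of the 71, against the 19.3% of all genes. The 13 chaperonin and prefoldin genes, which fold actin and tubulin, had a median of -0.30 in both comparisons, and none reached 2-fold in any of the 6. Nor did any of the 18 genes of HSP90 partners, whose medians were -0.33 for nTh1 minus TT naive and -0.27 for cTh1 minus the array labelled naive.

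Bag3, a nucleotide exchange factor that HSF1 also induces, did not follow Hspa1b and Hspa1a. It was at 7.68 in nTh1, 8.80 in cTh1, 8.39 in TT naive and 8.43 on the array labelled naive, so that cTh1 was its highest array and nTh1 was lower than cTh1 by 1.12. Of the heat shock factors, Hsf2 had 7.86 in nTh1, 8.29 in cTh1, 8.25 in TT naive and 8.33 on the array labelled naive, and Hsf4 had 7.55, 8.52, 7.69 and 8.39 on the same arrays. Hsbp1, which encodes a protein that binds heat shock factor trimers, was at 11.45 in nTh1, 11.79 in cTh1, 11.70 in TT naive and 11.83 on the array labelled naive. No gene of this list of 5 reached 2-fold in any comparison, and Hsf1 was not analysed here.

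In the ER list, which holds the partners and signalling genes of BiP, 2 of 23 were at least 2-fold lower in cTh1 than on the array labelled naive, Dnajb9 at -1.78 and Ddit3, a factor of prolonged ER stress, at -1.02, and none was higher. The median was -0.35, and of all genes 3.35% were at least 2-fold lower and 5.13% at least 2-fold higher. Dnajb9 had 11.41 in nTh1, 9.56 in cTh1, 10.89 in TT naive and 11.35 on the array labelled naive, so that cTh1 alone was low, as for Hspa5. Ddit3 was otherwise, at 9.20 in nTh1, 8.93 in cTh1, 9.01 in TT naive and 9.95 on the array labelled naive. The last array alone was high, and cTh1 minus TT naive was -0.08. In nTh1 Dnajb9 was higher than in cTh1 by 1.85, and Atf6, a sensor of ER stress, was lower by 1.13, while the list median was 0.04. Among 14 genes of mitochondrial import, folding and proteolysis, Afg3l2, a protease of the inner membrane, was the only one at 2-fold in any of the 6 comparisons. It was higher by 1.13 in cTh1 than on the array labelled naive, opposite in sign to Hspd1.

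**Figure D4:**
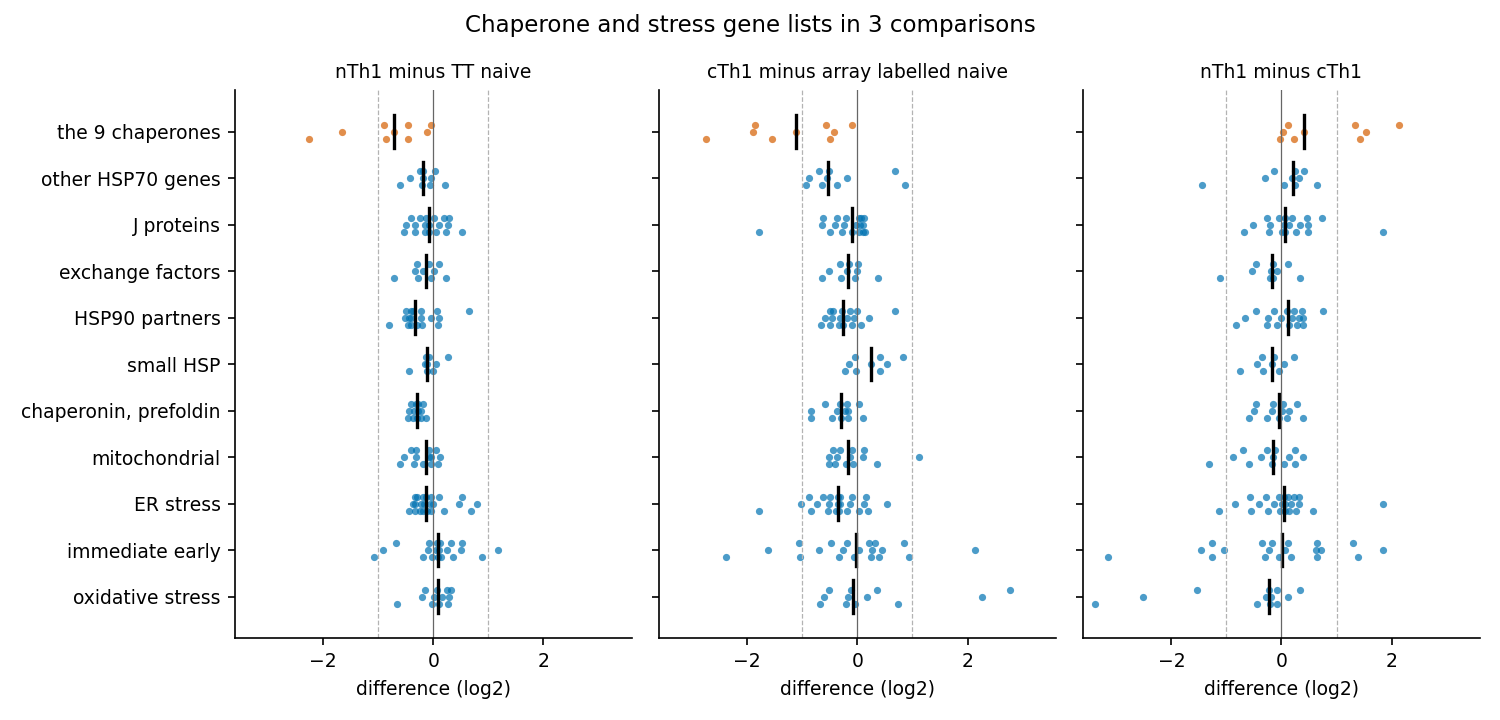
Log2 differences of the genes of 11 lists in 3 comparisons, 1 point per gene with a small vertical offset; orange points are the 9 chaperones, blue points the other lists, black bars the list medians and dashed lines 2-fold. The chaperone median is -0.72, -1.12 and 0.41 from left to right, and most other list medians lie within 0.35 of 0, other HSP70 genes at -0.53 in the middle panel being the exception.

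Genes that respond within minutes to handling and receptor signals were read beside the chaperones. Their list of 20 had medians of 0.09 for nTh1 minus TT naive, -0.02 for cTh1 minus the array labelled naive and 0.16 for cTh1 minus TT naive, with members on both sides. In cTh1 minus the array labelled naive 4 of 20 were at least 2-fold lower and 1 was at least 2-fold higher. The shares of all genes there were 3.35% and 5.13%. Nr4a1, an early target of the T cell receptor, was lower by 2.38 in cTh1 than on the array labelled naive, and Ier3 was higher by 2.13. Between TT naive and the array labelled naive, where Hspa1b differed by 1.64, the list median was -0.03 with 3 of 20 at least 2-fold lower. The share of all genes at least 2-fold lower there was 2.59%.

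Markers of other cells moved in the same comparisons. The 9 B cell markers measured had a median level of 7.10 in nTh1, 8.24 in cTh1, 6.36 in TT naive and 6.53 on the array labelled naive, and Cd79a was at 10.29 in cTh1. The 14 myeloid markers had medians of 7.62, 7.25, 6.47 and 7.17 on the same arrays, with Lyz2 higher in nTh1 than in TT naive by 3.38. The 4 CD8 T cell markers had medians of 7.09, 10.53, 6.85 and 7.19. The 8 NK cell markers measured, with Tyrobp also on the myeloid list, had medians of 8.09, 8.30, 6.39 and 7.92. In nTh1 minus TT naive 5 of them were above the filter, and all 5 were at least 2-fold higher, against 1.41% of all genes. The cTh1 array had the highest B cell, CD8 and NK cell medians and the lowest Hspa1b and Hspa1a values. An array value has no true zero, and the part of these cells in the chaperone values was not tested.

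The genes with the most similar profiles over the 4 arrays were found by the Euclidean distance of centred log2 values, over 4 arrays only. For Hspa1b the nearest genes outside the chaperones were Exph5, Xkrx, Adk, Map2 and Chn2, at distances from 1.26 to 1.56. Hspa1a was closer than any of them, at 0.94. For Hspa5 they were Pitpnm2, Utp20, Polr1b, Hexim1 and Ube2cbp, from 0.09 to 0.15, and for Hspd1 Nab2, Nat8f4, Timm9, Map7 and Ctps, from 0.09 to 0.16. Profiles as flat as that of Hspa8 were matched within 0.03 by Tex14, Kcnab2, Cab39, Sh3glb2 and Tmem150b.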

How the data were processed

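The deposited values are log2 RMA signals from the authors, who used Expression Console 1.3.1 of Affymetrix, per the submitters' processing notes. The log base was read from the values. Summary level and annotation version were not given in the sources used here. The table held 41345 probe sets on 4 arrays with 0 missing values and 0 unmatched columns. Array medians lay between 6.52 and 6.70. The number of arrays limits the precision. Total RNA, 300 ng, was labelled, per the labels.

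Probe sets were named from the platform annotation. Those with 1 symbol (23521) were used, and for 1082 of 22180 genes with several the one with the highest mean was kept. A difference is the log2 value on the array named first less that on the other. A gene was counted when at least 1 of the 2 arrays reached 6.61, the median of all values, and its difference reached 2-fold. The SD between probe sets was pooled over genes with 2 or more above that level. No test was made. Gene lists and members were chosen with earlier results of these data known. Within a list up to 4 genes past 2-fold were named per comparison, all heat shock factors could be named, and the 5 nearest profiles were given for Hspa1b, Hspa8, Hspa5 and Hspd1, passing over predicted and small RNA genes. Cd79a and Lyz2 are named as the leading markers of their lists. Promoter windows came from RefSeq (GRCm38.p6). The counting and motif searches were tested on simulated data. Python 3.11.15, numpy 2.4.6, pandas 2.3.3, statsmodels 0.14.6 and matplotlib 3.10.9 were used.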

Additional observations from a re-analysis of the deposited data

Results flagged for a closer look

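Some stress genes differed in opposite directions between the thymic pair (nTh1 minus TT naive) and the spleen-derived pair (cTh1 minus the array labelled naive), each with 1 array a side, and the difference between pairs was not tested. No chaperone of the 9 did so on its chosen probe set. Dnajb9 was at 0.52 in the thymic pair and -1.78 in the other. Ddit3 was at 0.19 and -1.02. Afg3l2 was at -0.0702 and 1.13. Nr4a1 was at 0.11 and -2.38, Dusp1 at 0.53 and -1.63, and Fosb at 1.17 and -0.33. The metallothionein gene Mt2 was at -0.14 and 2.77. Values within 0.257 in the thymic pair, those of Ddit3, Afg3l2, Nr4a1 and Mt2, are under the SD between probe sets, and so is Fosb in the other pair, where that SD is 0.402, so these signs are not settled. Dnajb9 and Dusp1 exceed the SD in both pairs, but that SD leaves out differences between animals, sorts, cultures and arrays.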

How the results depend on the processing

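Centring each array on its median, taking off a loess trend (span 0.3) and averaging all probe sets of a gene moved none of the 54 member differences by more than the SD between probe sets, and the largest shifts were 0.18, 0.14 and 0.10. Averaging could move only Hspa8, the only member with more than 1 probe set of 1 symbol. Centring moves every gene of a comparison alike, by at most 0.18 here, which is below every such SD. Centring itself shifted all genes by -0.18 for nTh1 minus cTh1, -0.13 for nTh1 minus the array labelled naive and 0.12 for cTh1 minus TT naive. No member past 2-fold changed sign. Under 2-fold, Hspa5 in nTh1 minus TT naive, Dnajb1 in nTh1 minus cTh1 and Hsp90aa1 in nTh1 minus the array labelled naive changed sign with the loess trend taken off, to 0.01, 0.01 and 0.02, and Hspa8 in TT naive minus the array labelled naive did so with probe sets averaged, to -0.04. With arrays centred, 1 member in place of 0 passed 2-fold between nTh1 and the array labelled naive. At 1.5-fold, 5 members passed in place of 2 for nTh1 minus TT naive, 2 in place of 0 for nTh1 minus the array labelled naive and 7 in place of 4 for cTh1 minus TT naive. At 3-fold, 3 in place of 5 passed for cTh1 minus the array labelled naive, 1 in place of 4 for nTh1 minus cTh1 and 1 in place of 2 for TT naive minus the array labelled naive. These follow from the threshold. Without a level filter the share of all genes at 2-fold in either direction was 1.63% in place of 2.50% for nTh1 minus TT naive and 5.21% in place of 8.48% for cTh1 minus the array labelled naive, because more genes were counted. The order of both Th1 arrays under both naive arrays held in 9 of 9 members with arrays centred and with probe sets averaged, alternatives added after the data were seen. Averaging could have changed it only for Hspa8. Leaving out the array labelled naive, also added then, could not have broken it. The loess trend, taken off pair by pair, turned 1 difference each of Hspa5 and Hsp90aa1 against it.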

Other observations

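Some genes of the oxidative stress list ran opposite to Hspa1b and Hspa1a in cTh1. The metallothionein genes Mt1 and Mt2, which bind zinc and copper and respond to metals and oxidants, were highest in cTh1, where Hspa1b and Hspa1a were lowest. Mt1 was at 7.21 in nTh1, 9.73 in cTh1, 7.19 in TT naive and 7.47 on the array labelled naive. Mt2 was at 6.22 in nTh1, 9.60 in cTh1, 6.36 in TT naive and 6.83 on the array labelled naive. Hmox1, the heme oxygenase induced by oxidants, was at 6.38 in nTh1, 7.92 in cTh1, 6.09 in TT naive and 7.18 on the array labelled naive. In cTh1 minus TT naive, where Hspa1b was at -4.39, these 3 were the only genes of 12 in the oxidative stress list at 2-fold, at 2.54 for Mt1, 3.24 for Mt2 and 1.83 for Hmox1. The share of all genes at least 2-fold higher there was 7.24%.

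The promoters of 8 other chaperone genes were looked up after their values were seen. Chordc1, Hspb1, Ahsa1 and Bag3 held at least 1 of the heat shock forms, and Cacybp, Dnajb9, Hspa4l and Stip1 held neither. Bag3, which differed by -1.12 for nTh1 minus cTh1, held 1 match of the 2-unit form. Chordc1, an HSP90 partner, held 3 matches of the 3-unit form around its start, all without a mismatch. It had 10.62 in nTh1, 10.38 in cTh1, 11.12 in TT naive and 10.89 on the array labelled naive, under 2-fold in each comparison. Hspb1, a small heat shock protein gene, held 1 match of that form with 1 mismatch and 2 matches of the 2-unit form. It stayed between 5.99 and 6.55, under the median of all values on all 4 arrays.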
